A study of Mus musculus with 4 samples.

Results

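The neural crest genes described here are the 8 genes *Sox10*, *Foxd3*, *Tfap2a*, *Tfap2b*, *Ets1*, *Erbb3*, *Snai2* and *Twist1*, chosen by name and found by gene identifier, 1 row each, among 55602 genes. Their RNA was measured in neural precursor cells (NPCs) made from JB1, a male hybrid mouse embryonic stem cell (ESC) line (mother JF1, father C57BL/6, here B6). There were 2 wild-type and 2 Zfp57-/- replicates, the latter from a single JB1-derived line without *Zfp57*, a zinc finger gene that protects DNA methylation at imprinted regions. The labels call both NPCs, but the paper describes the Zfp57-/- cells as only partially differentiated and names them neural precursor-like cells. ESCs of both genotypes were kept in 1i medium with 3 µM CHIR99021, an inhibitor of Gsk3, then changed to a defined differentiation medium, given 1 µM cyclopamine, an inhibitor of Hedgehog signalling, from day 2 to day 10 of corticogenesis, and harvested at day 12. With 1 line a genotype, the genotype and the line cannot be told apart.

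The neural crest is a population of cells that arises at the border of the neural plate, delaminates from the dorsal neural tube, migrates, and gives rise to peripheral neurons and glia, melanocytes and much of the skeleton of the face. AP-2 factors act at the border, Foxd3, Sox10, Ets1, Snai2 and Twist1 specify the premigratory cells and drive their delamination, and the receptor Erbb3 receives neuregulin signals in migrating cells and Schwann cell precursors. None of these genes is restricted to the crest: *Foxd3* is also transcribed in pluripotent cells, *Tfap2a* and *Tfap2b* in surface ectoderm and in some dorsal neurons, *Ets1* in endothelium and *Twist1* in mesoderm.

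The bulk counts summed to between 7663520 and 10337082 fragments per library, and 19995 genes whose counts over the 4 libraries came to more than 8 entered the comparison of genotypes. There, 27.6% of all genes passed an adjusted p of 0.05 (edgeR's quasi-likelihood test with Benjamini-Hochberg adjustment over all genes), 13% higher and 14.6% lower in Zfp57-/- cells. *Zfp57* itself had 392 and 249 counts in the wild-type libraries and 158 and 144 in the Zfp57-/- libraries, so that some of its transcript was still counted in the Zfp57-/- cells. The wild-type replicates differed from each other by more than the Zfp57-/- replicates did, by 46.5 against 9.13 times counting error per degree of freedom. Levels are given as CPM (counts per 1000000 fragments, with the library sizes scaled by edgeR's TMM method) or, where genes are compared with each other, as RPKM, which is CPM per kilobase of exon, and fold changes set Zfp57-/- against wild-type cells. In a bulk sample, fewer cells of a type and less RNA per cell cannot be told apart.

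All 8 genes had enough counts to be compared, and 6 of the 8 passed the threshold, against 27.6% of all genes. *Foxd3*, *Erbb3* and *Ets1* were higher in the Zfp57-/- cells, *Tfap2b*, *Tfap2a* and *Twist1* were lower, and *Sox10* and *Snai2* did not pass the threshold. Both directions were thus represented, and the members' median log2 fold change was 0.24, against -0.01 over all genes tested. The CPM of the genotypes did not overlap for 7 of the 8 members, *Sox10* being the exception, while 66.3% of all genes showed no overlap.

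**Figure D1:**
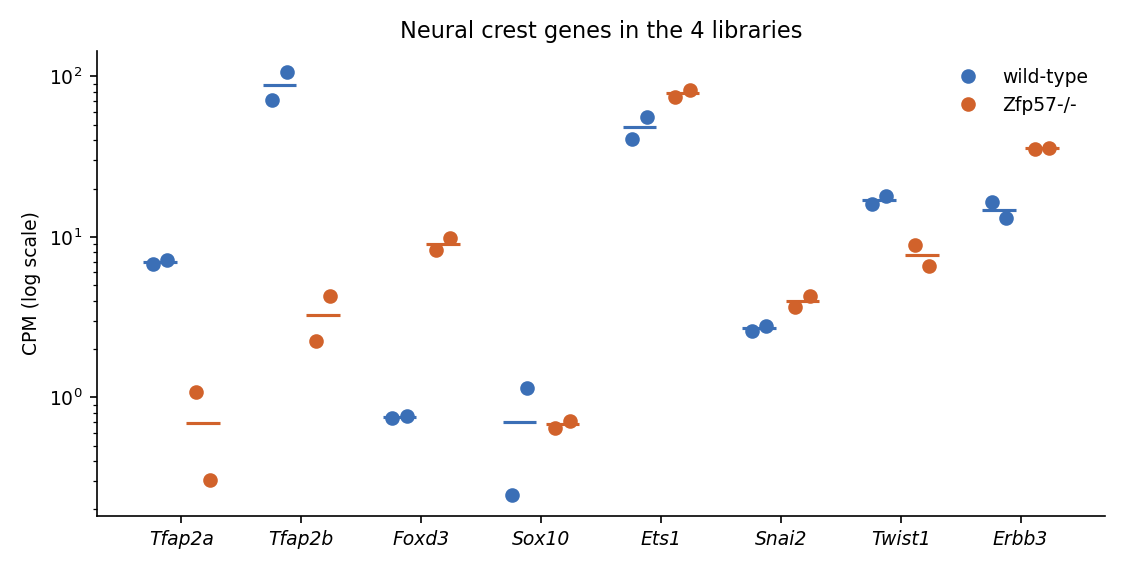
CPM (log scale) of the 8 neural crest genes in each of the 4 libraries; points are single libraries, blue wild-type and orange Zfp57-/-, and bars are means of 2 replicates. *Tfap2b* sits at 70.8 and 107 CPM in wild-type cells and at 2.25 and 4.29 CPM in Zfp57-/- cells, and *Foxd3* moves from below 1 CPM to 8.26 and 9.81 CPM.

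The AP-2 factors bind GC-rich sites and are among the first regulators switched on at the border of the neural plate. *Tfap2b* (ENSMUSG00000025927.13), which acts in sympathetic neurons and late crest, lies on chromosome 1 from 19208914 to 19238576 (GRCm38, plus strand). It had 572 and 1118 counts in the wild-type libraries and 21 and 42 counts in the Zfp57-/- libraries. Both Zfp57-/- libraries lay far below both wild-type libraries, and the mean fell from 88.8 ± 25.4 to 3.27 ± 1.44 CPM (SD, n = 2), a log2 fold change of -4.75 (SE 0.34, edgeR adjusted p = 1.33e-05). This made *Tfap2b* the member with the largest change. *Tfap2a* (ENSMUSG00000021359.16; chromosome 13 from 40715302 to 40738376, minus strand), the AP-2 gene of the early border, had 55 and 75 counts in the wild-type libraries and 10 and 3 counts in the Zfp57-/- libraries. It fell from 6.99 ± 0.25 to 0.69 ± 0.54 CPM (log2 fold change -3.33, SE 0.60, edgeR adjusted p = 0.00297), and the groups did not overlap, although the Zfp57-/- replicates themselves differed more than the wild-type ones.

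The third AP-2 gene with a role at the border, *Tfap2c*, which is also used in trophoblast and germ cells, moved the other way. It had 1.41 and 3.48 RPKM in the wild-type libraries and 8.40 and 6.64 RPKM in the Zfp57-/- libraries and rose by a log2 fold change of 1.601 (SE 0.37, edgeR adjusted p = 0.0109). *Tfap2d*, the neighbour of *Tfap2b* 42.6 kb away on the same strand, fell with it, from 19 and 39 counts to 0 and 1, a ratio of wild-type over Zfp57-/- of 59.7 (95% counting interval 10.3 to 2399, edgeR adjusted p = 0.00311). *Tfap2e* had 0.59 and 0.27 RPKM in the wild-type replicates and 1 count in each Zfp57-/- library, and did not pass the threshold (edgeR adjusted p = 0.0740). Summed over the 5 genes, AP-2 RNA averaged 19.9 RPKM in wild-type cells, and 8.25 RPKM in Zfp57-/- cells. *Tfap2b* made up 70.8% and 70.3% of that sum in the wild-type libraries and 3.94% and 9.05% in the Zfp57-/- libraries, while *Tfap2c* made up 8.96% and 14.5% and then 93.1% and 88.8%. The AP-2 RNA of the wild-type cells was thus mostly that of *Tfap2b* and that of the Zfp57-/- cells mostly that of *Tfap2c*.

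**Figure D2:**
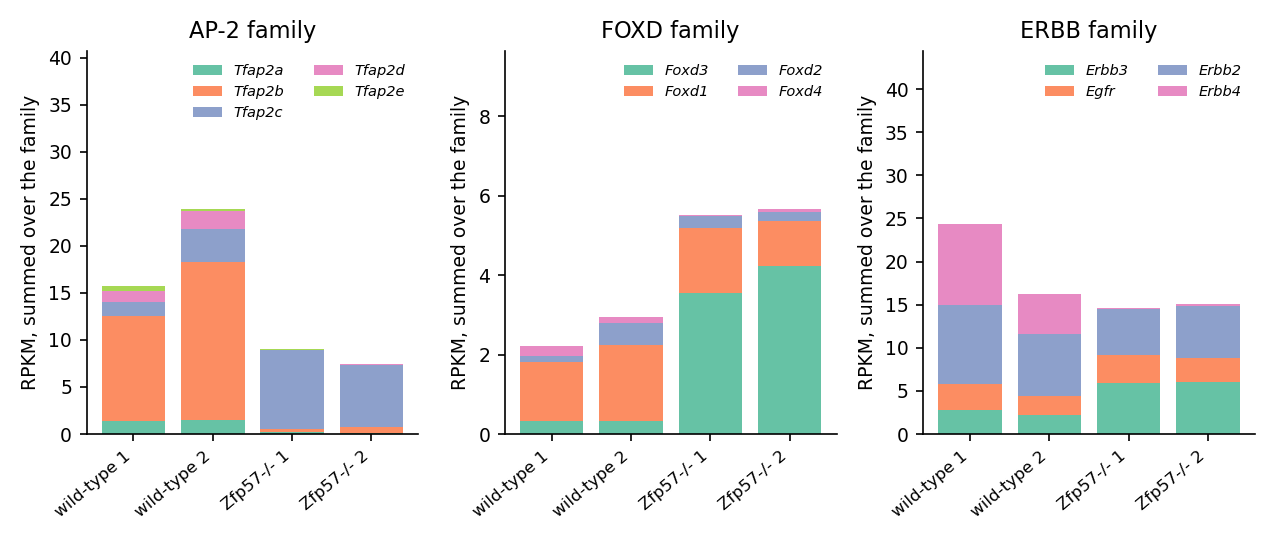
RPKM of the members of the AP-2, FOXD and ERBB families, stacked, in each library; colours are genes and bar heights are family sums. *Tfap2c* replaces *Tfap2b* as the main AP-2 transcript in the Zfp57-/- libraries, *Foxd3* takes 64.4% and 74.4% of the FOXD sum there, and *Erbb4* is nearly absent from the ERBB sum.

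*Foxd3* (ENSMUSG00000067261.4) encodes a forkhead repressor of premigratory crest that is also needed by pluripotent cells, and lies on chromosome 4 from 99656299 to 99658622 (plus strand). It had 6 and 8 counts in the wild-type libraries and 77 and 96 counts in the Zfp57-/- libraries. All Zfp57-/- values were above all wild-type values, and the mean rose from 0.75 ± 0.01 to 9.04 ± 1.09 CPM (SD, n = 2; log2 fold change 3.56, SE 0.47, edgeR adjusted p = 0.000467). Its paralogs did not pass the threshold, with log2 fold changes of -0.30 for *Foxd1*, -0.43 for *Foxd2* and -1.58 for *Foxd4*. The pluripotency markers moved with *Foxd3*: all 8 of 8 on the list rose, their summed level was between 4.21 and 8.02 CPM in the wild-type and between 1133 and 1298 CPM in the Zfp57-/- libraries, and *Nanog* was at 0 counts in both wild-type libraries. Their part in the level of *Foxd3* was not tested.

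The promoters of *Foxd3*, the member with the largest rise, of *Tfap2b*, the member with the largest fall, and of *Twist1* are shown here because they differ in their content of CpG dinucleotides, the sites of DNA methylation. Each is the RefSeq window on GRCm38.p6 from 250 bases before to 50 bases from the start site, 5′ to 3′ on the gene's strand, with CpG in capitals: *Foxd3* at chr4:99656049-99656348, *Tfap2b* at chr1:19211804-19212103 and *Twist1* at chr12:33957421-33957720.

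Foxd3: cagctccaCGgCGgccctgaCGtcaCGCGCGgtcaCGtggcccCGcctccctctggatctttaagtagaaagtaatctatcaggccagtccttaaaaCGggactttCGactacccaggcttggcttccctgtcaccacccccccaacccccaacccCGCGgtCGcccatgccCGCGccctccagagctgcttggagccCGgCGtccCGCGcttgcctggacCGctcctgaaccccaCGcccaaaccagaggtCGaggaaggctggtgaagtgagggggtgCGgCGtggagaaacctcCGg

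Tfap2b: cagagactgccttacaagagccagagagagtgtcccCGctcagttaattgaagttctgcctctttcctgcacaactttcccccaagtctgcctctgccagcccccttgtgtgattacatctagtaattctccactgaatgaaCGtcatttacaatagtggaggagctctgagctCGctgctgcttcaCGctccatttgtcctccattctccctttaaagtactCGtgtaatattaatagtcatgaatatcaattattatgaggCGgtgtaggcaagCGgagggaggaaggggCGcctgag

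Twist1: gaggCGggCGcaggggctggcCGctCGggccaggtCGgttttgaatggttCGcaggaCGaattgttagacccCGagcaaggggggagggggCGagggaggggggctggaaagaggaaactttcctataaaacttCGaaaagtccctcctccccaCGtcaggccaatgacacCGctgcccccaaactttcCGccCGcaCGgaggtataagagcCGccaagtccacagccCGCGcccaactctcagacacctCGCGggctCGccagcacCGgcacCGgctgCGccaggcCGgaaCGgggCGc

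The *Foxd3* window held 25 CpG and the *Twist1* window 27, more than 81.6% and 84.5% of the 32851 windows of mouse genes, whose median was 7. The *Tfap2b* window held 8 CpG, and its RefSeq start lies 3140 bases inside the interval that the count table gives for the gene. *Tfap2a* had windows at 2 starts, with 11 and 15 CpG, which lie 3456 and 4581 bases inside its interval. The *Foxd3* and *Twist1* starts lie 0 bases inside theirs. Among the 4 members with a window, the 2 AP-2 genes, which both fell, had fewer CpG than *Foxd3*, which rose, and *Twist1*, which fell. This sets starts inside the AP-2 genes against starts at the edge of the other 2, and each AP-2 window held more CpG than the median window. Short motifs were searched on both strands of these windows, the AP-2 motif GCCNNNGGC, the E-box CAGGTG, the SOX motif ACAAAG, the ETS motif CCGGAA and the forkhead motif TGTTTAC. The only match was 1 ETS motif in the *Twist1* window, 36 bases after the start site. These motifs are found in 16.6%, 20.2%, 18.7%, 14.9% and 3.65% of all windows in the same order, and a match or its absence describes only these letters in this window.

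*Sox10* (ENSMUSG00000033006.10; chromosome 15 from 79154908 to 79165240, minus strand), the SOXE factor of migrating crest and of its glia and melanocytes, was barely detected. It had 2 and 12 counts in the wild-type libraries and 6 and 7 in the Zfp57-/- libraries, or 0.70 ± 0.63 and 0.68 ± 0.05 CPM (SD, n = 2). The wild-type values lie on either side of the Zfp57-/- values, and no difference was detectable at this depth (log2 fold change -0.08, SE 0.90, edgeR adjusted p = 0.958). The direction was not fixed either, since the log2 fold change was 1.41 without wild-type replicate 2. Most SOXE RNA came from *Sox9*, a factor of early crest that also acts in neural stem cells and cartilage, with 81.0% and 82.3% of the SOXE sum per length in the wild-type libraries and 85.7% and 83.2% in the Zfp57-/- libraries. *Sox9* had a log2 fold change of -0.28 (SE 0.25) and *Sox8* of -0.71 (SE 0.57), neither past the threshold (edgeR adjusted p = 0.440 and 0.390).

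*Ets1* (ENSMUSG00000032035.15; chromosome 9 from 32636221 to 32757820, plus strand), which acts in delamination of cranial crest, had 327 and 586 counts in the wild-type libraries and 695 and 809 in the Zfp57-/- libraries. It rose from 48.2 ± 10.9 to 78.7 ± 5.7 CPM (SD, n = 2), a log2 fold change of 0.70 (SE 0.21, edgeR adjusted p = 0.0355), the smallest change among the members that passed. The call was lost without Zfp57-/- replicate 1 (0.79, adjusted p = 0.159) and without Zfp57-/- replicate 2 (0.64, adjusted p = 0.277). Its nearest paralog *Ets2* had 5.51 and 7.93 RPKM in the wild-type libraries and 7.71 and 7.80 RPKM in the Zfp57-/- libraries and did not pass the threshold (log2 fold change 0.20, SE 0.22, edgeR adjusted p = 0.540).

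Several of the increases depended on the scale. The reference gene *Actb* itself differed 1.98-fold between the wild-type replicates, at 1812 and 3596 CPM, and stood at 3764 and 4013 CPM in the Zfp57-/- libraries. On its scale the SE was 0.51 for *Ets1* and 0.54 for *Erbb3*. When *Actb* set the scale in place of TMM, the median log2 fold change of all genes moved to -0.68, and *Ets1* (0.10, adjusted p = 0.922) and *Erbb3* (0.55, adjusted p = 0.531) no longer passed the threshold while *Snai2* changed sign to -0.09. Relative to that median, they stood at 0.78, 1.23 and 0.59. *Foxd3*, *Tfap2a*, *Tfap2b* and *Twist1* kept their directions and passed on both scales. Of the paralogs that rose, *Tfap2c* (1.15, adjusted p = 0.171) and *Snai3* (3.52, adjusted p = 0.0888) also no longer passed on the *Actb* scale.

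*Snai2* and *Twist1* encode repressors and activators of the transition from epithelium to migrating cells. *Snai2* (ENSMUSG00000022676.7; chromosome 16 from 14705852 to 14709385, plus strand) had 21 and 29 counts in the wild-type libraries and 34 and 42 in the Zfp57-/- libraries, or 2.68 ± 0.12 and 3.97 ± 0.46 CPM (SD, n = 2). The values did not overlap, but the log2 fold change of 0.56 (SE 0.47) did not pass the threshold (edgeR adjusted p = 0.411). Its paralog *Snai3* rose from 1 count in each wild-type library to a mean of 1.99 CPM, a ratio of 18.4 (95% counting interval 4.77 to 158, edgeR adjusted p = 0.00879). *Snai1*, which marks gastrulating mesoderm as well as crest, differed 5.01-fold between the wild-type replicates, 1.22 against 6.13 RPKM, with both Zfp57-/- replicates in between (3.64 and 4.41 RPKM).

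*Twist1* (ENSMUSG00000035799.6; chromosome 12 from 33957671 to 33959829, plus strand), a bHLH factor of cranial crest mesenchyme, had 130 and 188 counts in the wild-type libraries and 83 and 64 in the Zfp57-/- libraries. It fell from 17.0 ± 1.3 to 7.72 ± 1.67 CPM (SD, n = 2), a log2 fold change of -1.14 (SE 0.29, edgeR adjusted p = 0.0159). As for *Ets1*, the call was lost without Zfp57-/- replicate 1 (-1.37, adjusted p = 0.0652) or Zfp57-/- replicate 2 (-0.93, adjusted p = 0.232), with the direction kept. *Twist2* was low in all libraries, at 1.68 ± 0.45 CPM in wild-type and 3.71 ± 0.69 CPM in Zfp57-/- cells, and did not pass the threshold (log2 fold change 1.12, SE 0.53, edgeR adjusted p = 0.148).

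*Erbb3* (ENSMUSG00000018166.8; chromosome 10 from 128567523 to 128589652, minus strand) encodes the neuregulin receptor of migrating crest and Schwann cell precursors, which needs a partner kinase such as Erbb2 to signal. It had 133 and 137 counts in the wild-type libraries and 330 and 352 in the Zfp57-/- libraries. It rose from 14.8 ± 2.4 to 35.7 ± 0.4 CPM (SD, n = 2), with no overlap between groups (log2 fold change 1.28, SE 0.23, edgeR adjusted p = 0.00273). *Erbb4*, the neuregulin receptor of neurons and neural progenitors, went the other way, from 9.47 and 4.65 RPKM in the wild-type to 0.17 and 0.18 RPKM in the Zfp57-/- replicates (log2 fold change -5.30, SE 0.39, edgeR adjusted p = 1.48e-05). *Erbb2* and *Egfr* did not pass the threshold, with log2 fold changes of -0.52 (SE 0.22) and 0.22 (SE 0.23). *Erbb3* thus took 11.2% and 13.4% of the ERBB sum per length in the wild-type libraries and 40.2% and 39.7% in the Zfp57-/- libraries, and *Erbb4* 38.8% and 28.7% and then 1.19% and 1.21%. The ligand gene *Nrg1* stood at 45.8 ± 9.4 CPM in wild-type cells, against 61.4 ± 14.2 CPM in Zfp57-/- cells, a difference that did not pass the threshold (edgeR adjusted p = 0.207).

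**Figure D3:**
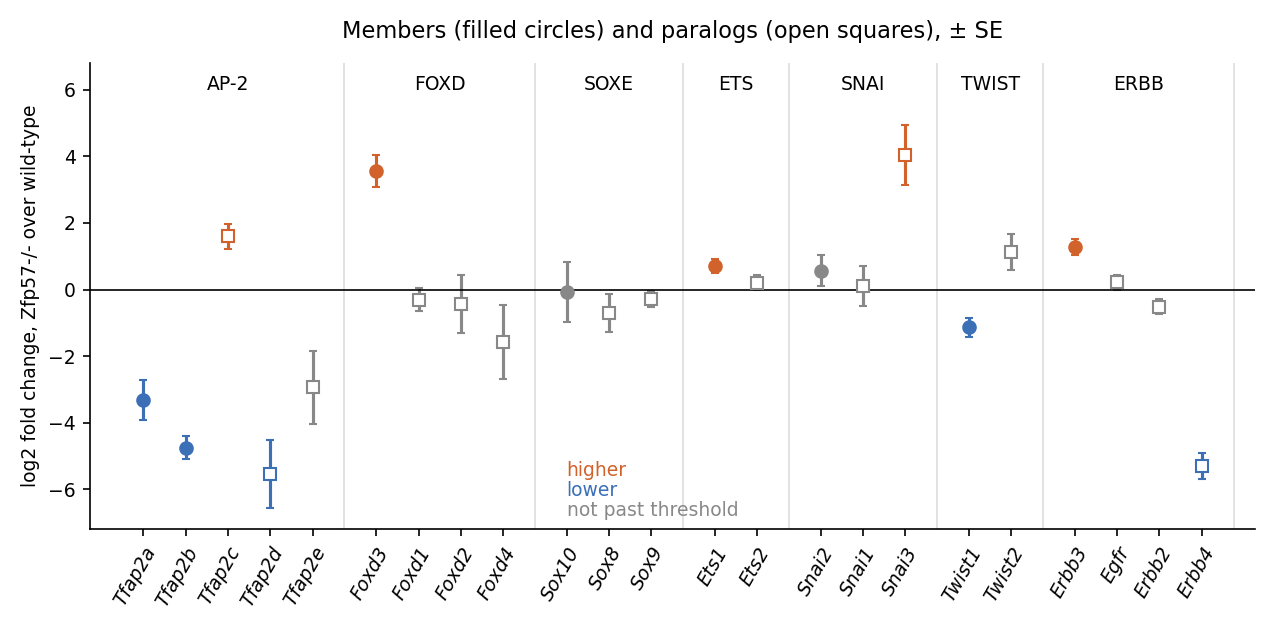
Log2 fold change of Zfp57-/- over wild-type cells (points) with its standard error (bars) for the 8 members (filled circles) and their 15 paralogs (open squares), by family; orange is higher, blue lower and grey not past the threshold. The AP-2 and ERBB families each hold genes called in opposite directions, with *Tfap2c* at 1.601 beside *Tfap2b* at -4.75 and *Erbb3* at 1.28 beside *Erbb4* at -5.30.

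Among the 15 paralogs of the members, 4 passed the threshold, *Tfap2c* and *Snai3* higher and *Tfap2d* and *Erbb4* lower, and 11 did not, a share of 26.7% beside 27.6% of all genes. The order of the members by level per length differed between genotypes. In wild-type cells *Tfap2b* was highest at 14.01 ± 4.005 RPKM, followed by *Twist1* at 10.5 ± 0.8, *Ets1* at 5.69 ± 1.29, *Erbb3* at 2.46 ± 0.40, *Tfap2a* at 1.42 ± 0.05 and *Snai2* at 1.33 ± 0.06 RPKM (SD, n = 2). *Foxd3* at 0.32 ± 0.01 and *Sox10* at 0.23 ± 0.21 RPKM came last and overlapped. In Zfp57-/- cells *Ets1* was highest at 9.28 ± 0.68 RPKM, followed by *Erbb3* at 5.93 ± 0.07, *Twist1* at 4.75 ± 1.03 and *Foxd3* at 3.89 ± 0.47 RPKM. *Twist1* and *Foxd3* overlapped there, as did the 2 lowest, *Sox10* at 0.22 ± 0.02 and *Tfap2a* at 0.14 ± 0.11 RPKM. *Tfap2b* went from first to sixth place, at 0.52 ± 0.23 RPKM.

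The other genes of the crest were taken from 8 lists of 63 genes in all, of which 56 could be tested. Of these, 29 passed the threshold, 23 lower and 6 higher in Zfp57-/- cells, or 51.8% beside 27.6% of all genes, and their median log2 fold change was -0.75 (-0.71 with genes that were at 0 in a genotype set to their bound). The share called was 100% of tested border factors, 66.7% of autonomic genes, 62.5% of specifiers and 55.6% of migration genes. Nearer to the 27.6% of all genes were receptors and ligands (36.4%), Schwann cell (33.3%), melanocyte (25%) and cranial mesenchyme genes (25%). All 7 tested border factors passed. *Pax3* and *Pax7*, the paired box genes of the dorsal neural tube and border, fell from 78.9 ± 7.7 to 5.71 ± 0.27 CPM and from 24.4 ± 0.8 to 0.89 ± 0.19 CPM, and *Msx1* fell from 40.6 ± 2.9 to 2.81 ± 0.94 CPM. *Msx2* fell by less, to a log2 fold change of -0.78 (edgeR adjusted p = 0.0408). *Tfap2c*, *Prdm1* (log2 fold change 1.99) and *Gbx2* (1.43) rose, and *Dlx5* and *Dlx6* had too few counts to test.

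Among 8 tested specifiers, 4 fell and 1 rose. Those that fell included *Sox5* (log2 fold change -1.37), *Id3* (-1.05) and *Lmo4* (-0.88), and *Csrnp1* was higher (2.26, SE 0.22, edgeR adjusted p = 7.95e-05). Of 9 genes of delamination and migration, *Zeb1* (-2.11), *Zeb2* (-1.50), *Cdh11* (-1.50) and *Cdh2* (-0.93) fell, and *Mmp2*, a protease of the matrix, rose (1.10, adjusted p = 0.0287). *Vim*, the intermediate filament of mesenchymal and progenitor cells, was high in both genotypes, at 873 ± 129 and 735 ± 4 CPM, and did not pass the threshold. Of 11 receptors and ligands, 4 fell and none rose at the adjusted threshold. *Ednrb*, the endothelin receptor of enteric and melanocyte precursors, fell from 47.6 ± 13.1 to 0.93 ± 0.71 CPM (log2 fold change -5.64), and the GDNF receptor genes *Gfra1* and *Ret* fell by 3.36 and 2.44 on the log2 scale. *Ngfr*, which encodes the neurotrophin receptor often used to sort crest cells, had a log2 fold change of -1.06 (edgeR adjusted p = 0.0151). *Kit* was at 309 ± 69 and 257 ± 40 CPM and did not pass the threshold.

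Genes of crest derivatives were mostly low. In the autonomic list *Th*, the first enzyme of catecholamine synthesis, fell from 76 and 45 counts to 2 counts in each Zfp57-/- library, a ratio of wild-type over Zfp57-/- of 31.1 (95% counting interval 11.9 to 116). The paper lists *Th* in the imprinted *Kcnq1ot1* domain, with maternal expression in wild-type cells and a lower level in Zfp57-/- cells. It calls the allelic bias of *Th* borderline. The part of imprinting in the fall of *Th* was not tested here. *Dbh*, the enzyme that makes noradrenaline, was at 0 in both Zfp57-/- libraries and at least 4.70-fold lower there than in wild-type cells, taking 3 counts per library as the floor. The list's median was -4.13, or -2.78 with *Dbh* at its bound. Of the melanocyte list, *Pmel* rose from 1.98 ± 0.70 to 8.05 ± 0.76 CPM (log2 fold change 2.00), while *Dct* and *Tyr*, the pigment enzymes, had 1 count in all 4 libraries together. In cranial mesenchyme, *Alx4* (-1.50) and *Prrx1* (-0.97) fell and 6 of 8 genes did not pass the threshold.

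**Figure D4:**
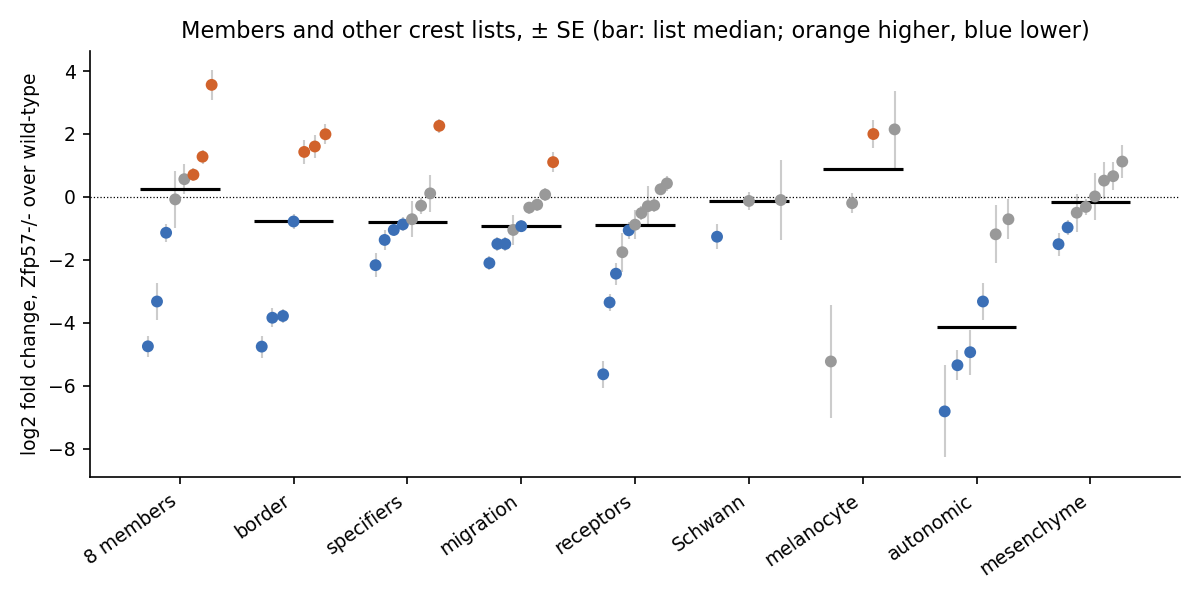
Log2 fold change with standard error of the 8 members and of the tested genes of 8 other crest lists; orange points are higher, blue lower and grey not past the threshold, and black bars are list medians. The values of *Tyrp1* (lowest melanocyte point) and *Dbh* (lowest autonomic point) rest on 0 counts in Zfp57-/- cells. Border, specifier, migration, receptor and autonomic medians lie below 0, at -0.78, -0.79, -0.93, -0.88 and -4.13 (-2.78 with *Dbh* at its bound). The Schwann and mesenchyme medians lie slightly below 0, at -0.13 and -0.15, and the melanocyte median lies above, at 0.90.

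Markers of other cell types were also compared, and their part in the changes of the crest genes was not tested. Beside 27.6% of all genes, 87.5% of tested neural, 75% of sensory, 66.7% of surface ectoderm and 50% of oligodendrocyte markers passed the threshold. The shares of endothelial (37.5%), mesoderm (33.3%) and endoderm (20%) markers lay nearer to that of all genes. Besides the pluripotency list, 6 of 9 tested markers of surface ectoderm and epithelium rose, from 292 to 425 CPM summed in the wild-type to 1516 to 1779 CPM in the Zfp57-/- libraries, led by *Krt8*, *Krt18* and *Cdh1*. Epidermal *Krt14* had at most 1 count in any library and *Krt5* was at 0 in the Zfp57-/- libraries. Neural progenitor and neuron markers fell for 7 of 8 genes, from 1191 and 1644 CPM to 381 and 345 CPM. Sensory neuron and placode markers fell for 5 of 8 genes, with sums of 167 to 198 CPM in the wild-type and 76.6 to 81.5 CPM in the Zfp57-/- libraries, and *Prph* rose. Mesoderm markers rose for 3 of 9 genes, *T*, *Tcf15* and *Meox1*. The sums of this list were 371 to 785 and 654 to 736 CPM, most of it the collagen gene *Col3a1*, which did not pass the threshold. Endothelial markers, to be set beside *Ets1*, rose for 2 of 8 genes (*Pecam1* and *Tek*) and fell for *Kdr*, with sums of 98.2 to 116 and 117 to 138 CPM. Oligodendrocyte markers, to be set beside *Erbb3* and *Sox10*, rose for *Olig1* and *Olig2* and fell for *Mbp*, with *Mog* at 0 in all libraries. Their sums were 363 to 417 and 216 to 326 CPM, most of it *Pdgfra*, which did not pass the threshold. Endoderm markers were abundant in both genotypes, with sums of 3018 to 4252 and 4968 to 6973 CPM, most of it *Lama1*, and 2 of 10 passed the threshold, *Dab2* higher and *Sox7* lower.

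The genes whose pattern over the 4 libraries was closest to each member, by the Euclidean distance of centred log2 CPM among 138 tested genes of these lists, are given as a description. For *Tfap2b* they included *Pax7* (distance 0.72), for *Tfap2a* they were the neural progenitor genes *Sox1* (0.25) and *Pax6* (0.42), and for *Twist1* *Id3* (0.25) and *Prrx1* (0.30). For *Foxd3* they were the keratin gene *Krt18* (0.17) and *Prph* (0.40), for *Erbb3* *Olig2* (0.26) and *Afp* (0.29), and for *Ets1* *Grhl2* (0.21) and *Lama1* (0.25). *Snai2* was close to *Ets1* (0.36), and *Sox10* to *Foxd2* (0.29) and *Cdh5* (0.37).

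Each member lies on its own chromosome, and their neighbours differed in their calls. Of the 32 nearest tested genes, 2 on each side of a member, 3 rose, 5 fell and 24 did not pass the threshold, a share called of 25% beside 27.6% of all genes. Besides *Tfap2d* next to *Tfap2b*, the nearest tested gene after *Twist1*, *Hdac9* at 87.8 kb, fell with it (log2 fold change -2.58, edgeR adjusted p = 0.000282). *Pa2g4*, 1.54 kb from *Erbb3*, rose (0.92, adjusted p = 0.0126). The noncoding gene *Gm12688*, 1.32 kb before *Foxd3* on the opposite strand, had 2 and 3 counts in the wild-type libraries and 12 and 9 in the Zfp57-/- libraries but did not pass the threshold (adjusted p = 0.123). *Gm26688*, which overlaps *Tfap2a* on the opposite strand and was counted apart from it by strand, had 10 and 3 counts in wild-type and 0 in both Zfp57-/- libraries (edgeR adjusted p = 0.0491). *Polr2f*, 3.13 kb from *Sox10*, rose (0.82, adjusted p = 0.0415), and *Efcab1*, the nearest tested gene after *Snai2*, fell (-2.22, adjusted p = 0.0236), while *Abcc1* before *Snai2* and *Alg6* after *Foxd3* did not pass the threshold. Farther away, *Pkhd1* after *Tfap2b* was higher and *Kirrel3* after *Ets1* was lower.

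The JF1 and B6 parents differ at many bases, so that reads over a polymorphic base can be assigned to the maternal (JF1) or paternal (B6) allele. The allelic counts summed to between 2837013 and 3826604 per library, and 10977 autosomal genes were tested for a difference between alleles, each with 10 or more normalized allelic counts in wild-type replicates 1 and 2. Of these, 23.6% passed an adjusted p of 0.05 in wild-type cells, 21.8% in Zfp57-/- cells and 14.5% in the contrast between genotypes. The 5 members with enough reads were *Tfap2a*, *Tfap2b*, *Ets1*, *Erbb3* and *Twist1*. In wild-type cells none of the 5 passed the threshold with edgeR, 0 had an unadjusted p under 0.05, and DESeq2 also called 0.

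*Tfap2b* RNA came evenly from both alleles in wild-type cells, with 105 and 216 maternal against 92 and 223 paternal reads and a maternal share of 0.51 ± 0.03 (SD, n = 2). The 22 reads left in Zfp57-/- cells held 13 maternal and 9 paternal ones, a pooled share of 0.59 (exact 95% interval 0.36 to 0.79, which covers counting error only). Around it, the median share of the 15 nearest genes with at least 10 reads in every library was 0.48 in wild-type cells but 0.65 in Zfp57-/- cells. This shift was not particular to the surroundings of *Tfap2b*. Elsewhere on chromosome 1, the same medians were 0.50 and 0.67 around *Erbb4* and 0.48 and 0.67 around *Twist2*. The part of this shift in the levels of genes on chromosome 1 was not tested. *Twist1* had maternal shares of 0.536 ± 0.000871 and 0.530 ± 0.0284, and *Ets1* of 0.53 ± 0.03 and 0.51 ± 0.04, in wild-type and Zfp57-/- cells. The changes in level of *Tfap2b*, *Ets1* and *Twist1* thus came with both alleles still read in both genotypes, and the contrast between genotypes did not pass the threshold for any of the 3 (edgeR adjusted p = 0.777, 0.880 and 0.983).

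*Erbb3* had somewhat more paternal than maternal reads in each of the 4 libraries. The maternal share was 0.39 and 0.42 in the wild-type libraries and 0.43 and 0.39 in the Zfp57-/- libraries, against 0.47 and 0.48 for its 15 neighbours. The log2 ratio of maternal over paternal reads in wild-type cells was -0.54 (SE 0.28, edgeR adjusted p = 0.164), that in Zfp57-/- cells was -0.52 (SE 0.20, edgeR adjusted p = 0.0436), and the contrast between them was 0.02 (SE 0.32, edgeR adjusted p = 0.993). The call in Zfp57-/- cells was lost with DESeq2 (adjusted p = 0.612) and without any one of the 4 libraries (0.0553 without wild-type replicate 1, 0.0562 without wild-type replicate 2, 0.0693 without Zfp57-/- replicate 1 and 0.290 without Zfp57-/- replicate 2).

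*Tfap2a* had 9 and 16 maternal against 10 and 6 paternal reads in the wild-type replicates, a share of 0.60 ± 0.18 (SD, n = 2). In the Zfp57-/- replicates it had 7 and 1 paternal reads and 0 maternal reads, a pooled maternal share of 0 over 8 reads (exact 95% interval 0 to 0.37). The genotype-by-allele contrast was -5.64 (SE 1.94, edgeR adjusted p = 0.0345), a fitted value that depends on the prior count, since an allele was at 0. It was lost with DESeq2 (adjusted p = 0.394) and without wild-type replicate 1 (0.112), wild-type replicate 2 (0.453) or Zfp57-/- replicate 1 (0.575).

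The remaining 3 members had few allelic reads. *Foxd3* had none in wild-type cells and 1 maternal and 8 paternal reads in Zfp57-/- cells, only 5.20% of its counts there, so that the parental origin of its rise rests on 9 reads. *Snai2* had 12 maternal and 0 paternal reads in wild-type cells, a pooled maternal share of 1 (exact 95% interval 0.74 to 1), and 11 maternal and 4 paternal reads in Zfp57-/- cells, all 4 of the paternal reads in Zfp57-/- replicate 2. *Sox10* had 9 maternal and 0 paternal reads in wild-type and 2 maternal and 5 paternal reads in Zfp57-/- cells. For none of the 3 could alleles be compared between genotypes.

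**Figure D5:**
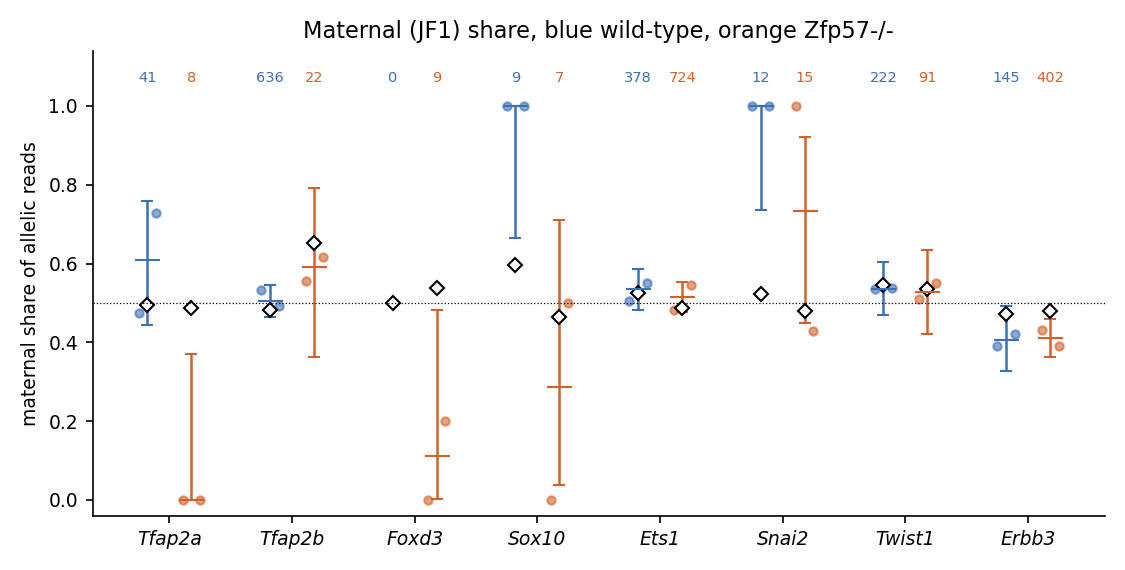
Maternal (JF1) share of the allelic reads of each member, blue in wild-type and orange in Zfp57-/- cells; points are libraries, horizontal bars pooled shares with exact 95% intervals, open diamonds the median share of the 15 nearest genes, and numbers the pooled reads. *Tfap2b*, *Ets1* and *Twist1* lie near 0.5 in wild-type cells, *Erbb3* lies below its neighbours, and the intervals of *Tfap2a* in Zfp57-/- cells, *Foxd3*, *Sox10* and *Snai2* are wide.

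Of the paralogs, 7 had enough allelic reads to be tested. *Tfap2c*, which rose, was read more from the paternal allele in Zfp57-/- cells, with 24 and 27 maternal against 70 and 42 paternal reads (log2 ratio -1.11, SE 0.32, edgeR adjusted p = 0.00545), and from both alleles in wild-type cells (29 and 30 reads), but the contrast between genotypes did not pass the threshold (adjusted p = 0.266). The call in Zfp57-/- cells was lost with DESeq2 (adjusted p = 0.398) and without Zfp57-/- replicate 1 (log2 ratio -0.64, edgeR adjusted p = 0.346). *Foxd1* had more paternal reads in both genotypes, with maternal shares of 0.27 ± 0.01 and 0.16 ± 0.08. On 56 reads in wild-type cells, its log2 ratio was -1.44 (SE 0.53, edgeR adjusted p = 0.0366). This wild-type call was lost with DESeq2 (adjusted p = 0.475) and with a replicate block (edgeR adjusted p = 0.1305). *Sox9* had a maternal share of 0.48 ± 0.01 in wild-type cells against 0.65 ± 0.01 in Zfp57-/- cells, while its neighbours were at 0.46 and 0.49 (contrast 1.05, SE 0.36, edgeR adjusted p = 0.0341), a call that was lost with DESeq2 (adjusted p = 0.608) and without any one of the 4 libraries. *Ets2* had 136 and 247 maternal and 0 paternal reads in the wild-type replicates, a pooled maternal share of 1 (exact 95% interval 0.990 to 1), and 97 and 123 maternal and 144 and 129 paternal reads in the Zfp57-/- replicates. The 15 genes around *Ets2* had a median maternal share of 0.55 and 0.48 in the same order. *Erbb2*, *Egfr* and *Erbb4* did not pass the threshold in either genotype or in the contrast.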

How the data were processed

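Stranded total RNA of 2 wild-type and 2 Zfp57-/- NPC cultures was analysed from 2 tables of counts that the authors deposited. Per the authors, reads were cleaned by Trimmomatic 0.36 and mapped by STAR 2.5.4a on GRCm38, before counting fragments per gene by strand with featureCounts (GENCODE vM20 without 2 genes), which gave raw counts. For the second table they masked the strain polymorphisms and split the reads with SNPsplit into JF1 and B6 counts per gene. Here, genes with more than 8 bulk counts were compared with edgeR 4.0.16 in R 4.3.3 (robust quasi-likelihood test, TMM), and alleles in a model of library plus allele within genotype. DESeq2 1.42.0 was an alternative, as were other scalings, filters and thresholds, a replicate block and leaving out each library. Both tests were checked on simulated data. Replicate numbers were not used as pairs. Bounds use 3 counts per library, and intervals cover counting error only. Promoter sequences are from RefSeq, where 4 of 8 members had a window.

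The named genes are the members, their paralogs and, from each other list, up to 4 genes a direction with the smallest adjusted p and up to 2 abundant genes that did not pass. The named neighbouring genes and *Dct*, *Tyr*, *Tyrp1*, *Krt5*, *Krt14*, *Mog*, *Dlx5* and *Dlx6* were named after their values were seen. The members, lists and tests were chosen with earlier results of these data known. Some genes of these lists are not reported here.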

Additional observations from a re-analysis of the deposited data

Results flagged for a closer look

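In 3 genes the maternal over paternal ratio differed between genotypes by a test of the difference itself (edgeR, genotype-by-allele contrast on the log2 scale). For *Tfap2a* the contrast was -5.64 (adjusted p = 0.0345) and rests on 8 paternal and 0 maternal reads in Zfp57-/- cells. For *Sox9*, a paralog of *Sox10*, it was 1.05 (adjusted p = 0.0341), with the maternal share at 0.47 and 0.48 in the wild-type libraries and 0.66 and 0.65 in the Zfp57-/- libraries. That call was lost with DESeq2 (adjusted p = 0.608) and without any one of the 4 libraries (0.243 and 0.178 without wild-type replicate 1 or 2, 0.0905 and 0.0516 without Zfp57-/- replicate 1 or 2). For *Ets2*, a paralog of *Ets1*, it was -10.9 (adjusted p = 3.04e-27), a fitted value that depends on the prior count, since the paternal allele was at 0 of 383 reads in wild-type cells. The exact 95% interval of the pooled maternal share there was 0.990 to 1, while Zfp57-/- cells had 220 maternal and 273 paternal reads. The *Ets2* contrast passed under all 8 alternatives, and the *Tfap2a* contrast under 2 of the 7 in which it could be fitted.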

How the results depend on the processing

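Of the 8 members, 6 passed the threshold, and 6 also did with DESeq2's test, upper-quartile scaling, DESeq2's size factors, genes left unfiltered, a stricter filter (which leaves *Sox10* untested) and a replicate block. All genes past the threshold numbered 5522 (2607 higher), and 6360 without a filter. With *Actb* as the scale, 3480 genes passed (486 higher), with 1 member and 1 other crest gene higher, and 13.97% of all calls were higher against 47.2%. At an adjusted p of 0.01, 4 members, 2901 genes (1260 higher) and 19 other crest genes (3 higher) passed, against 29 (6 higher). Leaving out 1 library gave 4 to 6 members, 2831 to 9947 genes (1280 to 5103 higher) and 19 to 39 other crest genes (15 to 30 lower). The lone library left in a genotype is then assumed to vary like the others, and the cause of these shifts was not tested. Same-numbered replicates share only a number: their deviations correlated at 0.156 over 10149 genes, and the replicate block gave 6984 genes and turned *Sox10* to 0.10.

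The log2 fold change of *Snai2* was -0.0887 with *Actb* as the scale, and those of *Egfr*, *Ets2* and *Snai1* were -0.536, -0.391 and -0.225. With 1 library left out, *Sox10* ranged from -0.768 to 1.41, *Snai1* from -0.629 to 1.71, *Ets2* from -0.0591 to 0.491 and *Foxd2* from -1.08 to 0.849; none of these genes passed the threshold with all libraries.

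Of the allele results, 2 members passed in Zfp57-/- cells and 1 in the contrast. DESeq2 and the replicate block gave 0 for both. A minimum of 20 allelic counts in every library, under which *Tfap2a* could not be fitted, gave 1 and 0. Leaving out 1 library gave 0 to 1 for both. The replicate block turned the log2 allele ratio of *Ets1* to -0.013 in wild-type cells and -0.0823 in Zfp57-/- cells and that of *Tfap2a* to -0.170 in wild-type cells. With 1 library left out, ratios in wild-type cells ranged from -0.150 to 1.40 for *Tfap2a* and from -0.046 to 0.191 for *Tfap2b*, that of *Ets1* in Zfp57-/- cells from -0.100 to 0.260, and the contrasts from -0.0942 to 0.141 for *Erbb3*, from -0.291 to 0.0686 for *Ets1* and from -0.152 to 0.0799 for *Twist1*. Few allelic reads limit *Foxd3*, *Sox10*, *Snai2* and, in Zfp57-/- cells, *Tfap2a* and *Tfap2b*.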
